A study of Mus musculus with 12 samples.

Results

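The DNA repair genes examined here are 39 named genes that sense, mark or mend damaged DNA, found by exact match of their symbols in the gene table of 55487 genes. All 39 were found, and 38 of them passed the filter on low values, which asks that the 2 libraries of some group average more than 1 FPKM. FPKM counts fragments relative to the length of the transcript and to the size of the library, so levels of different genes can be compared per length. The gene left out was Neil3, a glycosylase for oxidised bases, which ranged from 0 to 1.02 FPKM over the 12 libraries. The study asked how the developmental transcription factor Pax6 and the kinase JNK3 shape the transcriptional response of the retina to excitotoxic injury.

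Bulk poly(A) RNA was sequenced from mouse retinas in 6 groups of 2 libraries, each library pooled from more than 3 retinas. The WT retinas came from C57BL/6J mice. The shPax6 retinas were infected with 2 µL of an AAV2.7m8 vector that carries GFP and an shRNA against Pax6 under the U6 promoter, in mice 2 months old. The JNK3 KO retinas came from mice lacking Jnk3 (gene symbol Mapk10) in the whole body. Each genotype received an intravitreal injection of PBS or of 40 nmol NMDA, a glutamate receptor agonist that kills retinal ganglion cells (RGCs), and the study's scheme collected retinas 24 h later. None of the 12 libraries was labelled as a control vector, so effects of infection and of Pax6 knockdown cannot be told apart. The labels do not say that the 2 libraries of a group are separate experiments, so the p-values below measure only the spread between these libraries, which may be technical.

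Cells keep several repair routes side by side. Base excision repair removes small oxidised or deaminated bases: a glycosylase cuts out the base, an endonuclease opens the strand, and a polymerase, a scaffold and a ligase close the gap. Nucleotide excision repair cuts out bulky lesions, mismatch repair corrects copying errors, and double-strand breaks are either rejoined end to end or, mostly in dividing cells, copied from the sister chromatid. Adult retinal neurons do not divide, and with their high oxygen use they are thought to rely mainly on base excision, single-strand break repair and end joining.

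The targeted genes followed the labels under PBS, with Pax6 at 94.56 and 92.84 FPKM in shPax6 against 173.48 and 177.30 FPKM in WT, and Mapk10 at 9.47 and 8.75 FPKM in JNK3 KO against 42.79 and 50.72 FPKM in WT. After NMDA, Mapk10 was at 8.98 and 6.00 FPKM in WT as well. Pax6 was at 55.42 and 53.81 FPKM in WT NMDA, below both shPax6 PBS libraries. It was at 67.52 and 58.73 FPKM in shPax6 NMDA and at 128.89 and 137.55 FPKM in JNK3 KO NMDA. Summed FPKM over all genes was 805627 and 820180 in the 2 WT NMDA libraries and 541210 to 576922 in the other 10, and the WT response ran with transcript length over all genes, as described for the repair genes further on. The 9 RGC markers summed to 564 to 585 FPKM in WT PBS and to 316 to 335 FPKM in WT NMDA, but to 167 FPKM in both shPax6 PBS libraries. Pou4f2, which defines RGCs, was at 1.92 and 1.71 FPKM in shPax6 PBS against 2.71 and 3.07 FPKM in WT PBS. Within a group, the median gene differed between the 2 libraries by 0.11 (JNK3 KO NMDA) to 0.25 (shPax6 NMDA) on the log2 scale. In bulk retina, fewer cells of a type and less RNA per cell cannot be told apart.

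In uninjured WT retinas the repair genes spanned a wide range of levels. Ddb1, a subunit of a ubiquitin ligase adaptor that also recognises ultraviolet lesions, stood at 178.03 and 192.69 FPKM, the highest of the 39. Polb, the polymerase that fills base excision gaps, followed at 50.08 and 52.30 FPKM, and Ercc2, a helicase of the transcription factor TFIIH, at 42.23 and 40.19 FPKM. Several members had low levels. Chek1, the checkpoint kinase of stalled forks, was at 1.10 and 0.59 FPKM, Chek2, its counterpart for breaks, at 0.42 and 0.64 FPKM, and Ung, which removes uracil, at 0.95 and 0.80 FPKM. The 39 genes together summed to 609.7 and 617 FPKM in WT PBS and to 761 FPKM in both WT NMDA libraries.

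**Figure D1:**
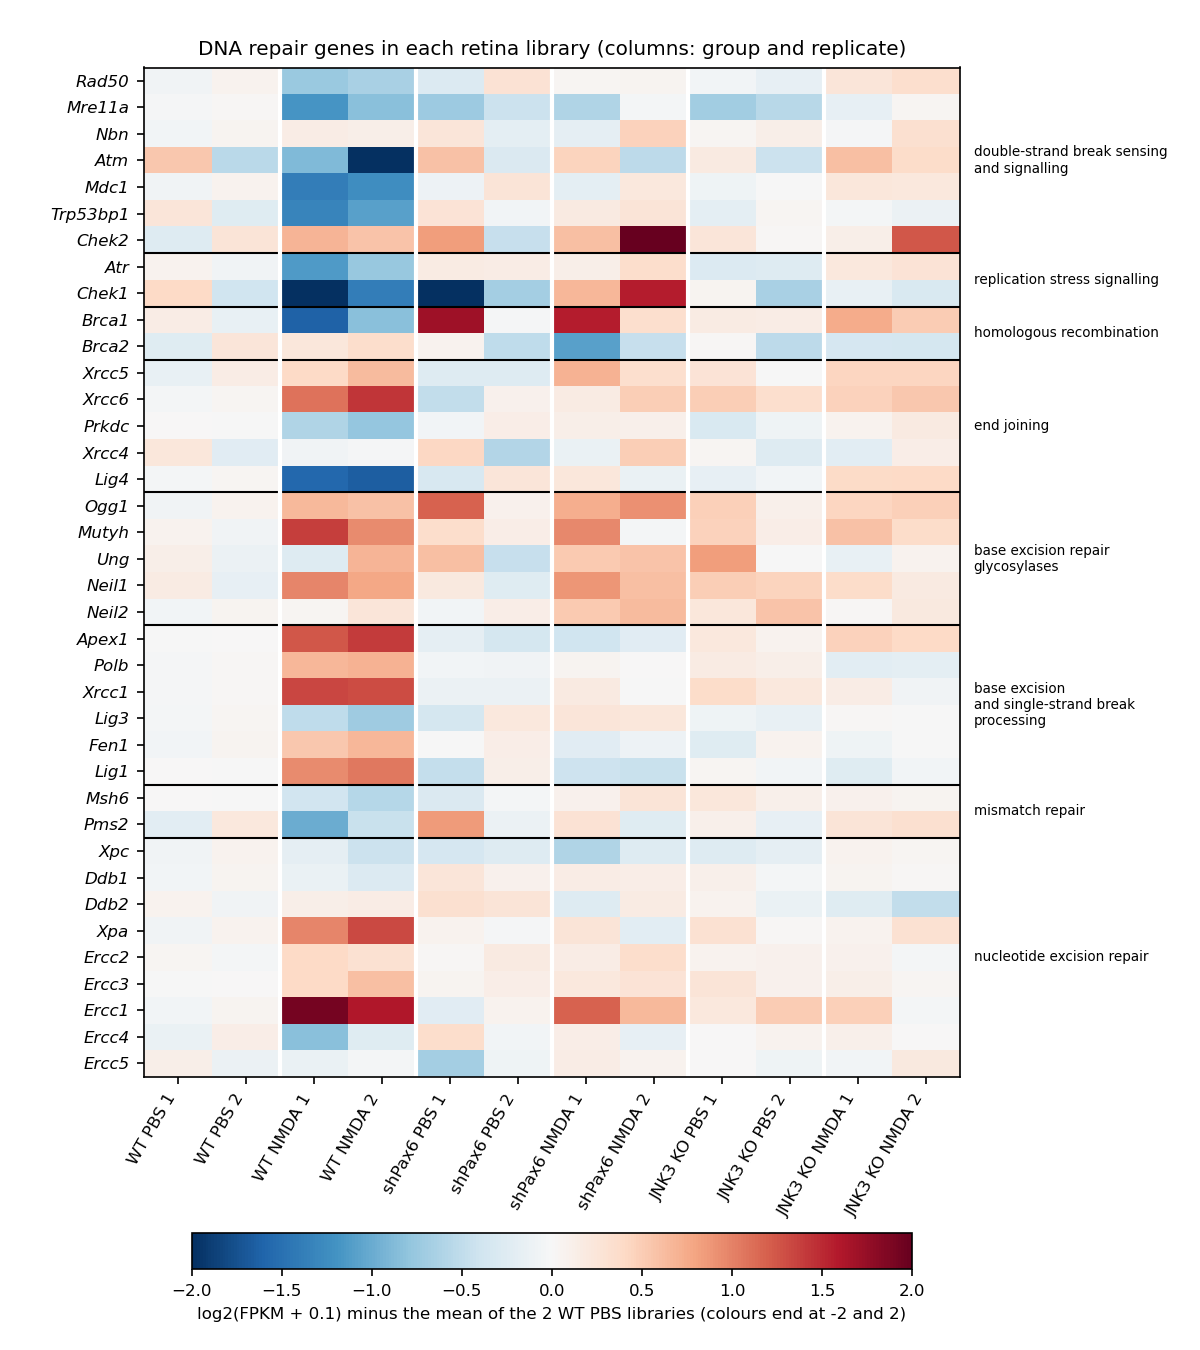
Level of the 38 tested DNA repair genes (rows, grouped by role) in each of the 12 retina libraries (columns), as log2(FPKM + 0.1) minus the mean of the 2 WT PBS libraries, with red for higher and blue for lower. The 2 WT NMDA columns stand apart: blue for most break-signalling genes such as Mdc1 and Trp53bp1, and red for Xrcc1, Apex1, Xrcc6, Xpa and Ercc1.

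On FPKM, NMDA changed the repair genes of WT retinas in both directions, with most break-signalling genes lower and most base excision processing genes higher. In WT, 13 of the 38 tested genes rose and 12 fell at an adjusted p under 0.05 (limma over all 16471 genes tested), which is 34.2% and 31.6% of them, against 26.0% of all genes higher and 33.8% lower. The median difference was 0.13 (log2) for the repair genes and -0.09 for all genes, with a range of -2.15 (Chek1) to 1.76 (Ercc1). Limits modelled on the study's were an unadjusted limma p under 0.05, an absolute log2 difference over 1 and a compared group mean above 1 FPKM. Called the study's limits below, they join cutoffs that the paper gave for separate comparisons. They leave out its variance-mean limit and use limma in place of edgeR. By these limits, 7 repair genes were higher and 5 lower, against 14.8% and 20.5% of all genes. In 33 of the 38 genes both NMDA libraries lay on the same side of both PBS libraries, where 81.2% of all genes did so. By role, 5 of 7 genes of double-strand break sensing and signalling fell and 0 rose. In base excision and single-strand break processing, 5 of 6 genes rose and 1 fell. Roles differ in transcript length, and 75.8% of all genes of 4 kb or longer fell while 44.7% of those under 2 kb rose. After the length correction described further on, Trp53bp1 alone of the break-signalling fallers stayed called, and Polb was called lower. All differences here are on the log2(FPKM + 0.1) scale, which understates changes of genes near 0. On TPM, which sets every library to the same total, the median of all genes moved from -0.09 to -0.66 and that of the repair genes from 0.13 to -0.44, and the calls became 5 higher and 18 lower, against 13.6% and 50.2% of all genes; the 5 were Xrcc6, Apex1, Xrcc1, Xpa and Ercc1. After quantile normalization they were 14 higher and 6 lower, against 26.8% and 30.7%.

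Promoter sequences of 31 of the 39 genes were at hand from RefSeq (mouse build GRCm38.p6). Shown are the 250 bases upstream of the start of the risers Xpa and Xrcc5 and of the fallers Mdc1 and Msh6, the genes with the smallest adjusted p in each direction whose window held no annotated exon and lay within 100 bases of the start of their most abundant transcript. They are written 5′ to 3′ on the gene's strand, with matches to the searched motifs in capitals. The windows lie at chr4:46196312-46196561 on the minus strand (Xpa), chr1:72307171-72307420 on the plus strand (Xrcc5), chr17:35841248-35841497 on the plus strand (Mdc1) and chr17:87974800-87975049 on the plus strand (Msh6).
Xpa: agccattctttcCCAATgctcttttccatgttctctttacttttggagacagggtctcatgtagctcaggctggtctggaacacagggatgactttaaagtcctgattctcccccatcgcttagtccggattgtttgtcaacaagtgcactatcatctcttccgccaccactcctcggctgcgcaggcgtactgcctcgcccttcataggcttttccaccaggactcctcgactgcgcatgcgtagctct
Xrcc5: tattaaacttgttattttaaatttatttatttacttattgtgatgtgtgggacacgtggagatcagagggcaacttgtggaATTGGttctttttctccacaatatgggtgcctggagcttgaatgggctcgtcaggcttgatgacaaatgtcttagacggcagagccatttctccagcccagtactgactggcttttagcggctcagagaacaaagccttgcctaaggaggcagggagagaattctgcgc
Mdc1: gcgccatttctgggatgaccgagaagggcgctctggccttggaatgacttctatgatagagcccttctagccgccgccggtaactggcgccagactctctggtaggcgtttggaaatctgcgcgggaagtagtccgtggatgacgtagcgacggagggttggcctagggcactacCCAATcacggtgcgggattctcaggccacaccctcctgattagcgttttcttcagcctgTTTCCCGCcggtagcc
Msh6: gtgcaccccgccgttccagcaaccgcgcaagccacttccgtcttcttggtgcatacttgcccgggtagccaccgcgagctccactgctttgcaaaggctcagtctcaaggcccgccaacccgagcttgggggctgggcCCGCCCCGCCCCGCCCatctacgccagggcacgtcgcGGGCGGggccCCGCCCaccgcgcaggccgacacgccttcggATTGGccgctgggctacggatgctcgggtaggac
The searched motifs were the GC box GGGCGG, the CCAAT box CCAAT, the ETS motif CCGGAAGT, the CRE TGACGTCA, the E2F motifs TTTGGCGC and TTTCCCGC, and the AP-1 motif TGACTCA, on both strands, with overlapping matches counted. The Xpa and Xrcc5 windows each held 1 CCAAT box, in Xrcc5 on the opposite strand. The Mdc1 window held a CCAAT box and the E2F motif TTTCCCGC, and the Msh6 window held 6 matches, of which GC boxes overlap by a base. Over all 31 windows, the GC box stood in 16, and in 6 of the 11 risers and 6 of the 10 fallers, against 32.7% of 32851 mouse promoters. The CCAAT box stood in 16 of 31 as well, in 6 of the 11 risers and 4 of the 10 fallers, against 33.8% of promoters. The E2F motif TTTCCCGC stood in 4 of 31, 1 riser and 1 faller among them, against 0.895% of promoters, while the other E2F motif, TTTGGCGC, stood in 0 against 0.417%. ETS stood in 2 of 31 against 2.88% and CRE in 1 against 1.55%, and AP-1 stood in 0 of 31 against 4.46%. Median GC content was 55.6% in the windows of risers and 59.8% in those of fallers. These matches are descriptions of letters and not binding sites.

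Of the 7 genes that sense and mark double-strand breaks, 5 fell in WT retinas, and after the length correction described further on Trp53bp1 alone of these 5 was still called, joined by Mre11a (-0.66, adjusted p = 0.0358) when lengths were weighted by abundance. The most abundant Trp53bp1 transcript, whose 3983 bases the correction used, is Trp53bp1-216, annotated for nonsense-mediated decay. Trp53bp1-216 went from 6.11 and 6.14 to 6.80 and 5.47 FPKM, while the fall was in the longer coding Trp53bp1-202 (9621 bases). Mdc1 (ENSMUSG00000061607, chr17:35841515-35859670), the mediator that binds phosphorylated histone at breaks, dropped from 17.64 and 19.37 FPKM in WT PBS to 7.01 and 7.73 FPKM after NMDA. That is 0.401 of the PBS level (log2 difference -1.32 ± 0.15 SE, limma adjusted p = 6.84e-05), the smallest adjusted p among the fallers, and the 10 libraries outside WT NMDA lay between 16.15 and 22.16 FPKM. Trp53bp1 (ENSMUSG00000043909, chr2:121193281-121271407), which steers breaks toward end joining, went from 36.76 and 26.38 to 12.39 and 14.57 FPKM (-1.21 ± 0.17, adjusted p = 0.000219). Both genes were thus lower in WT NMDA than in any other library. Mre11a, the nuclease of the complex that first binds a break, went from 10.49 and 10.91 to 4.68 and 5.94 FPKM (-1.01 ± 0.21, adjusted p = 0.00232), and its partner Rad50 from 4.29 and 4.75 to 2.67 and 2.84 FPKM (-0.69 ± 0.20, adjusted p = 0.0135). The third partner, Nbn, did not pass the test, at 8.06 and 8.66 FPKM under PBS and 9.23 and 9.03 FPKM under NMDA (95% interval of the difference -0.39 to 0.64).

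Atm, the kinase that break-bound complexes activate, fell with a wide error. Its WT PBS libraries held 8.86 and 4.10 FPKM and its WT NMDA libraries 3.23 and 0.69 FPKM (-1.92 ± 0.67, adjusted p = 0.0323), and its replicates also stood apart in shPax6 PBS, at 9.10 and 4.90 FPKM. Without WT PBS replicate 1 or without WT NMDA replicate 2 the call was lost, and the difference ranged from -2.96 to -0.88 over the libraries left out. Chek2, which Atm phosphorylates, stayed at or below 1.37 FPKM in 11 libraries and reached 3.13 FPKM in shPax6 NMDA replicate 2, and it passed no test.

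Both genes of replication stress signalling fell in WT. Atr (ENSMUSG00000032409, chr9:95857597-95951781), the kinase that reads single-stranded DNA, went from 7.02 and 6.32 to 2.97 and 3.91 FPKM (-0.95 ± 0.16, adjusted p = 0.000746), whereas the other 8 libraries held 5.52 to 8.49 FPKM. Chek1 was low throughout, with 1.10 and 0.59 FPKM under PBS and 0.02 and 0.25 FPKM under NMDA (-2.15 ± 0.78, adjusted p = 0.0389). Its call was lost without WT PBS replicate 1, WT PBS replicate 2 or WT NMDA replicate 1, at values from -2.92 to -1.38. Of the homologous recombination genes, neither Brca1 nor Brca2 passed the test. Brca1, which prepares broken ends for copying, had 2.07 and 1.67 FPKM under PBS and 0.54 and 1.00 FPKM under NMDA (95% interval -2.53 to 0.08), and 1 library, shPax6 PBS replicate 1, held 6.28 FPKM against 1.82 FPKM in its replicate. Brca2, which loads the recombinase, overlapped between WT PBS (3.01 and 4.27 FPKM) and WT NMDA (4.20 and 4.61 FPKM).

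The end joining genes split. The 2 Ku subunits, which cap broken ends, rose in WT: Xrcc6 (ENSMUSG00000022471, chr15:81987835-82040085) went from 17.03 and 18.11 to 37.43 and 47.27 FPKM, 2.39-fold (1.26 ± 0.19, adjusted p = 0.000408). By transcript, the coding Xrcc6-212 (1062 bases) went from 3.82 and 3.22 to 21.6 and 35.58 FPKM. The longer coding Xrcc6-201 (2114 bases) overlapped, at 9.15 and 9.04 FPKM under PBS and 13.61 and 8.08 FPKM under NMDA. Xrcc5, the other subunit, went from 10.21 and 12.55 to 14.88 and 17.68 FPKM (0.52 ± 0.16, adjusted p = 0.0213), a call lost without WT PBS replicate 1 or WT NMDA replicate 2, and on TPM its difference was -0.05. The genes that act after Ku fell or did not move. Prkdc, the catalytic subunit of the kinase that Ku recruits, went from 3.67 and 3.62 to 2.38 and 2.10 FPKM (-0.68 ± 0.18, adjusted p = 0.00796). Lig4 (ENSMUSG00000049717, chr8:9969049-9977686), the ligase of the pathway, went from 3.83 and 4.03 to 1.26 and 1.19 FPKM, 0.329 of the PBS level (-1.60 ± 0.23, adjusted p = 0.000217). Xrcc4, the partner that stabilises Lig4, did not pass the test, at 14.98 and 10.82 against 12.17 and 12.58 FPKM (95% interval -0.78 to 0.70). In WT NMDA, Lig4 thus stood below its lowest value in the other 10 libraries, 3.11 FPKM, while Xrcc6 stood above its highest value there, 25.45 FPKM.

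Among the base excision glycosylases, 2 of 5 tested rose in WT and 0 fell. Mutyh, which removes adenine paired with oxidised guanine, went from 2.43 and 2.19 to 6.17 and 4.55 FPKM (1.17 ± 0.32, adjusted p = 0.0117), a call lost without WT PBS replicate 2 or WT NMDA replicate 1. Neil1, which removes oxidised pyrimidines, went from 4.25 and 3.36 to 7.50 and 6.52 FPKM (0.87 ± 0.21, adjusted p = 0.00496). Ogg1, the main glycosylase for oxidised guanine, lay at 4.13 and 4.60 FPKM under PBS and at 6.91 and 6.62 FPKM under NMDA, without overlap, but did not pass the test (95% interval -0.06 to 1.31). Its spread was widest in shPax6 PBS, at 9.96 and 4.63 FPKM. Neil2 and Ung overlapped between the WT groups.

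The genes that carry base excision and single-strand break repair to its end rose in WT on FPKM, with 1 exception. Not all of these rises held on other scales. After the length correction described further on, Polb was called lower and Fen1 was no longer called. On TPM, Apex1 and Xrcc1 alone of these risers were called higher. Xrcc1 (ENSMUSG00000051768, chr7:24546289-24573440), the scaffold that gathers the other enzymes at a nick, went from 18.25 and 18.91 to 47.13 and 45.82 FPKM, 2.49-fold (1.32 ± 0.10, adjusted p = 4.65e-06). Apex1 (ENSMUSG00000035960, chr14:50924968-50927139), the endonuclease that opens the strand at an empty base, went from 21.12 and 21.24 to 50.02 and 55.74 FPKM (1.31 ± 0.10, adjusted p = 4.52e-06). In the other 10 libraries, Xrcc1 stayed between 17.06 and 23.88 FPKM and Apex1 between 16.03 and 29.18 FPKM, so both were highest in WT NMDA by a clear gap. Polb (ENSMUSG00000031536, chr8:22628126-22653435) went from 50.08 and 52.30 to 81.48 and 82.71 FPKM (0.68 ± 0.05, adjusted p = 5.31e-06). Fen1, which trims the displaced flap in long-patch repair, went from 10.43 and 11.14 to 15.76 and 17.14 FPKM (0.60 ± 0.13, adjusted p = 0.00297). Lig1, the ligase of long-patch repair and of replication, went from 10.18 and 10.15 to 19.74 and 21.19 FPKM (1.00 ± 0.18, adjusted p = 0.000882), but the sum of its protein-coding transcripts fell (-4.34). The exception was Lig3, the ligase that partners Xrcc1, which went from 10.73 and 11.25 to 7.66 and 6.66 FPKM (-0.61 ± 0.17, adjusted p = 0.0109) and lost its call without WT PBS replicate 2 or WT NMDA replicate 2. Reads may be shared between overlapping genes: 61.7% of the exon bases of Apex1 also lie in Pip4p1 on the opposite strand, and 78.8% of those of Fen1 in the antisense gene Gm10143. Pip4p1 averaged 49.6 FPKM in WT PBS and 47.5 FPKM in WT NMDA, and Gm10143 averaged 0.065 FPKM and was listed at 0 in both WT NMDA libraries. Some opposite-strand neighbours rose with the repair gene in WT, such as Klc3 with Ercc2 (72.2 to 172.9 FPKM) and Tmem258 with Fen1 (52.4 to 153.5 FPKM). Others fell with it, such as Tubgcp4 with Trp53bp1 (19.8 to 6.7 FPKM) and Rffl with Lig3 (8.7 to 4.9 FPKM). Tkfc rose where Ddb1 fell (8.9 to 11.7 FPKM), and Zswim9 did not rise with Lig1 (6.3 to 5.7 FPKM). The effect of shared reads was not tested.

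Of the mismatch repair genes, Msh6, which recognises single mismatches, went from 8.34 and 8.18 to 6.28 and 5.52 FPKM in WT (-0.48 ± 0.14, adjusted p = 0.0126), a call lost without WT PBS replicate 1 or WT NMDA replicate 2. Pms2, a subunit of the endonuclease that follows, was at 4.38 and 5.91 FPKM under PBS and 2.50 and 3.72 FPKM under NMDA and did not pass the test (95% interval -1.49 to 0.05). Both thus lay lower in WT NMDA without overlap, and only Msh6 passed the test.

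Of the 9 nucleotide excision repair genes, 4 were higher and 1 lower in WT, against 26.0% and 33.8% of all genes. After the length correction described further on, Xpa was no longer called and Ddb1 was called higher. Ercc1 (ENSMUSG00000003549, chr7:19344778-19356524), which with Ercc4 forms the nuclease that cuts on the 5′ side of a lesion, had the largest rise of all 38 genes. It went from 20.81 and 22.68 to 82.53 and 66.47 FPKM, 3.40-fold (1.76 ± 0.22, adjusted p = 0.000116). Its partner Ercc4 did not follow, at 5.86 and 7.03 FPKM under PBS and 3.57 and 5.42 FPKM under NMDA (-0.53, adjusted p = 0.0685). Xpa (ENSMUSG00000028329, chr4:46155347-46196311), which verifies the lesion and places the nuclease, went from 12.94 and 14.39 to 26.90 and 34.15 FPKM (1.15 ± 0.18, adjusted p = 0.000486). The TFIIH helicases moved less: Ercc2 went from 42.23 and 40.19 to 54.43 and 51.06 FPKM (0.35 ± 0.09, adjusted p = 0.00698). Ercc3 went from 12.73 and 12.94 to 16.89 and 19.63 FPKM (0.50 ± 0.11, adjusted p = 0.00271). On TPM, Ercc2 and Ercc3 had differences of -0.22 and -0.07, so the direction of these 2 depends on the scale. Of the genes that find lesions, Ddb1 went from 178.03 and 192.69 to 168.53 and 153.86 FPKM (-0.20 ± 0.07, adjusted p = 0.0384), a call lost without WT PBS replicate 2 or WT NMDA replicate 2. Xpc and Ddb2, which find lesions with it, and Ercc5, the nuclease of the 3′ side, did not pass the test, at differences of -0.31, 0.13 and -0.09.

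**Figure D2:**
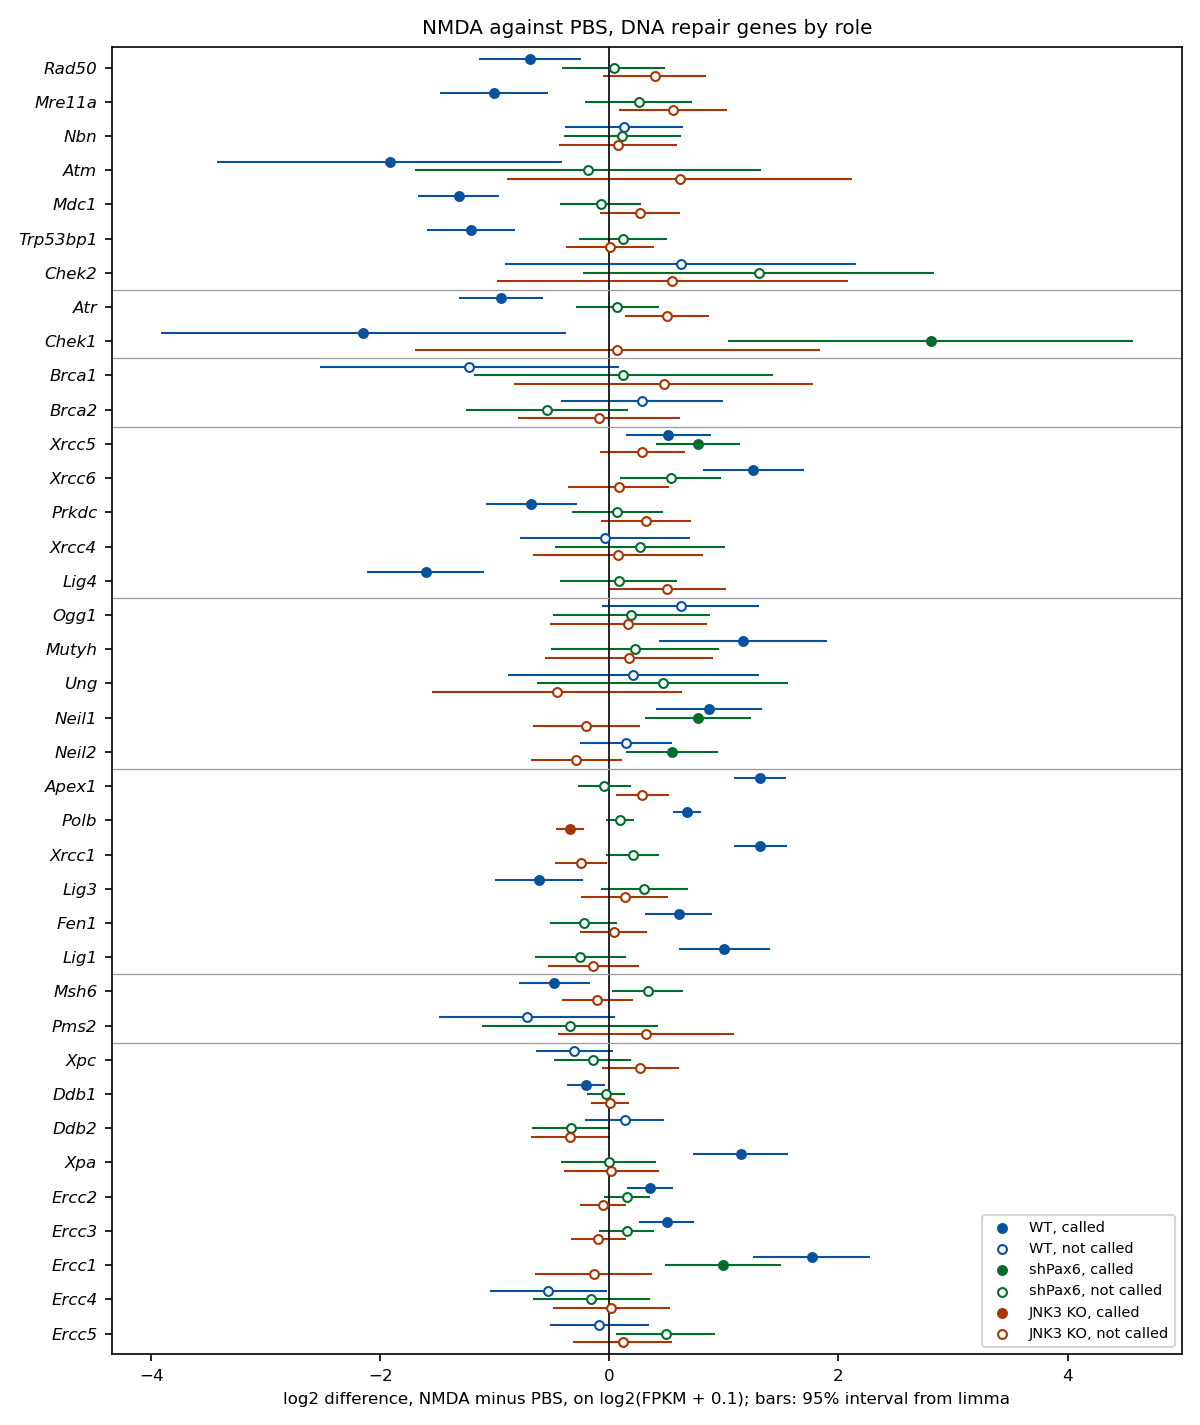
Log2 difference of NMDA against PBS for each of the 38 tested DNA repair genes (rows, by role) in WT, shPax6 and JNK3 KO retinas, on log2(FPKM + 0.1), with 95% intervals from limma and filled points for calls at an adjusted p under 0.05. WT points run from -2.15 (Chek1) to 1.76 (Ercc1) and 25 are filled, whereas 5 are filled in shPax6 and 1 in JNK3 KO.

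Transcript length ran with the WT response of these genes. The most abundant transcript was a median of 2100 bases long in the 13 risers (413 to 3578) and 5406.5 bases in the 12 fallers (817 to 12647). Of the 10 genes with a main transcript of 4 kb or longer, 0 rose and 9 fell, where 3.10% of all genes of that length rose and 75.8% fell. Of the 12 genes under 2 kb, 6 rose and 1 fell, against 44.7% and 9.51% of all such genes. The rank correlation of length with the log2 difference was -0.675 over the 38 repair genes and -0.540 over 16452 genes with a known length, given as a description, since genes share libraries. In shPax6 the same values were -0.261 and -0.158, and in JNK3 KO 0.476 and 0.227.

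The length trend bears on which roles stand out. After the trend of level on length was subtracted within each library, 9 repair genes were higher in WT and 4 lower, against 15.1% and 31.7% of all genes. The median of all genes in WT was -0.24 after this correction, so corrected values are not centred on 0. Calls in the same direction stayed for Xrcc6 (0.81), Apex1 (0.35), Xrcc1 (0.90), Lig1 (1.05), Ercc2 (0.56), Ercc3 (0.39) and Ercc1 (1.00), 7 of the 13 risers, and for the fallers Trp53bp1 (-0.86), Chek1 (-3.18) and Lig4 (-1.56). The risers Xrcc5 (0.32), Mutyh (0.44), Neil1 (0.17), Fen1 (0.15) and Xpa (0.11) were no longer called. The fallers Mdc1, Mre11a, Rad50, Atm, Atr, Lig3 and Msh6 were no longer called, at values of -0.70 (Atm) to 0.17 (Lig3). Prkdc, whose transcript is the longest of the 38, turned to 0.73 and Ddb1 to 0.29, both called higher, and Polb turned to -0.30, called lower. Whether the fall of the long break-signalling genes is separate from the trend over all long transcripts was not tested beyond this correction.

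**Figure D3:**
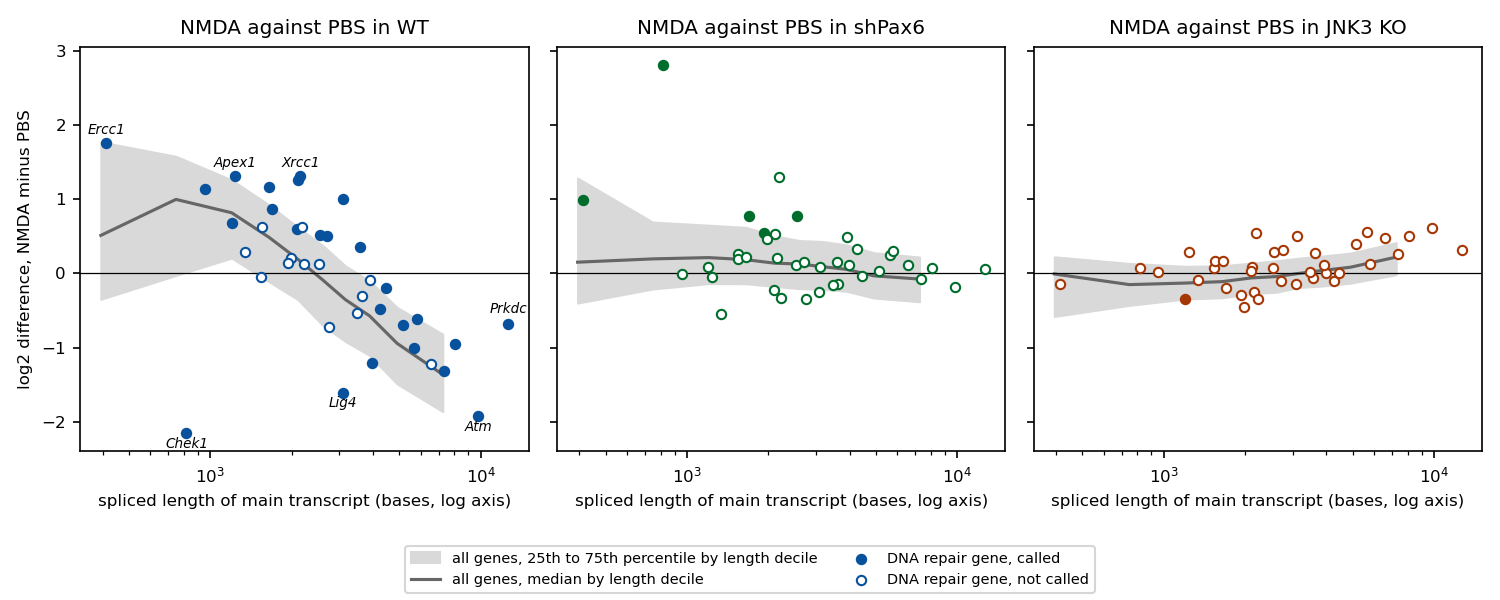
Length of the most abundant transcript (log axis, bases) against the log2 difference of NMDA against PBS in WT, shPax6 and JNK3 KO retinas, with the DNA repair genes as points, filled where called, and all genes summarised by their median and quartiles in length deciles. In WT the repair genes run from Ercc1 (413 bases) at 1.76 to Atm (9819 bases) at -1.92, with Chek1 (817 bases) at -2.15 far from the other short genes, while the rank correlation is -0.261 in shPax6 and 0.476 in JNK3 KO.

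The transcript table showed that some gene totals hide a change between transcripts. Of 136 transcripts of the repair genes that passed the same filter, 9 were higher and 27 lower in WT, against 11.7% and 23.5% of 49940 transcripts. The examples that follow were named after their values were seen, and the split of reads between transcripts is an estimate by RSEM. For Lig1, the protein-coding Lig1-201 went from 9.26 and 7.45 FPKM in WT PBS to 0 and 0.70 FPKM in WT NMDA, while Lig1-204, a retained-intron transcript of 946 bases, was listed at 0 in both PBS libraries and at 11.47 and 13.64 FPKM under NMDA. Lig1-204 passed the test (adjusted p = 0.00116) and Lig1-201 did not (adjusted p = 0.101), being listed at 0 in 1 shPax6 PBS and 1 shPax6 NMDA library too. The coding share of Lig1 FPKM was 92.1% in WT PBS and 2.76% in WT NMDA, so the gene total and its coding part moved apart. For Xrcc1, the coding Xrcc1-201 went from 13.44 and 13.42 to 19.94 and 23.38 FPKM (0.68), and Xrcc1-209, a processed transcript of 487 bases, was listed at 0 in both PBS libraries and at 21.35 and 19.09 FPKM under NMDA. Both gene totals therefore held in WT NMDA a short transcript without a coding annotation that stayed at or below 0.69 FPKM in the other 10 libraries.

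Ercc2 shifted between transcripts, whereas no shift was shown for Ercc1. Ercc1-210, a transcript of 413 bases annotated for nonsense-mediated decay, went from 7.84 and 6.83 to 47.17 and 38.11 FPKM, and the coding Ercc1-201 from 4.62 and 5.20 to 11.09 and 12.51 FPKM, but neither passed the test (adjusted p = 0.184 and 0.0896). For Ercc2, Ercc2-201 (coding, 3578 bases) went from 22.20 and 20.69 to 7.07 and 3.14 FPKM (-2.16), whereas Ercc2-203 (coding, 2799 bases) went from 5.37 and 7.34 to 38.57 and 40.78 FPKM (2.64). Among the break-signalling genes, some coding transcripts fell with the totals and others did not. Trp53bp1-202 (9621 bases) went from 8.37 and 8.29 to 0.81 and 1.83 FPKM (-2.67), Atm-201 (9819 bases) from 2.87 and 2.56 to 0.10 and 0.26 FPKM (-3.39), and Mdc1-201 from 12.53 and 12.08 to 7.01 and 7.34 FPKM (-0.77). In contrast, the coding Trp53bp1-201 (9405 bases) was listed at 0 in both PBS libraries and at 1.88 and 2.36 FPKM under NMDA (adjusted p = 0.043), and Nbn-201 (0.13) and Mre11a-205 (0.26) did not pass the test. Of Ddb1, the retained-intron transcripts Ddb1-208 (854 bases) and Ddb1-206 (714 bases) were at 12.12 and 10.61 and at 11.29 and 11.54 FPKM under PBS, and under NMDA at 1.04 and 0 FPKM and listed at 0 in both libraries, while the coding Ddb1-201 moved by -0.16. In shPax6, 2 transcripts rose (Pms2-203 and Xrcc5-201) and 1 fell (Apex1-203), against 4.71% and 3.63% of all transcripts, and in JNK3 KO 1 fell (Polb-201, -0.40) and 0 rose, against 0.775% and 0.537%.

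**Figure D4:**
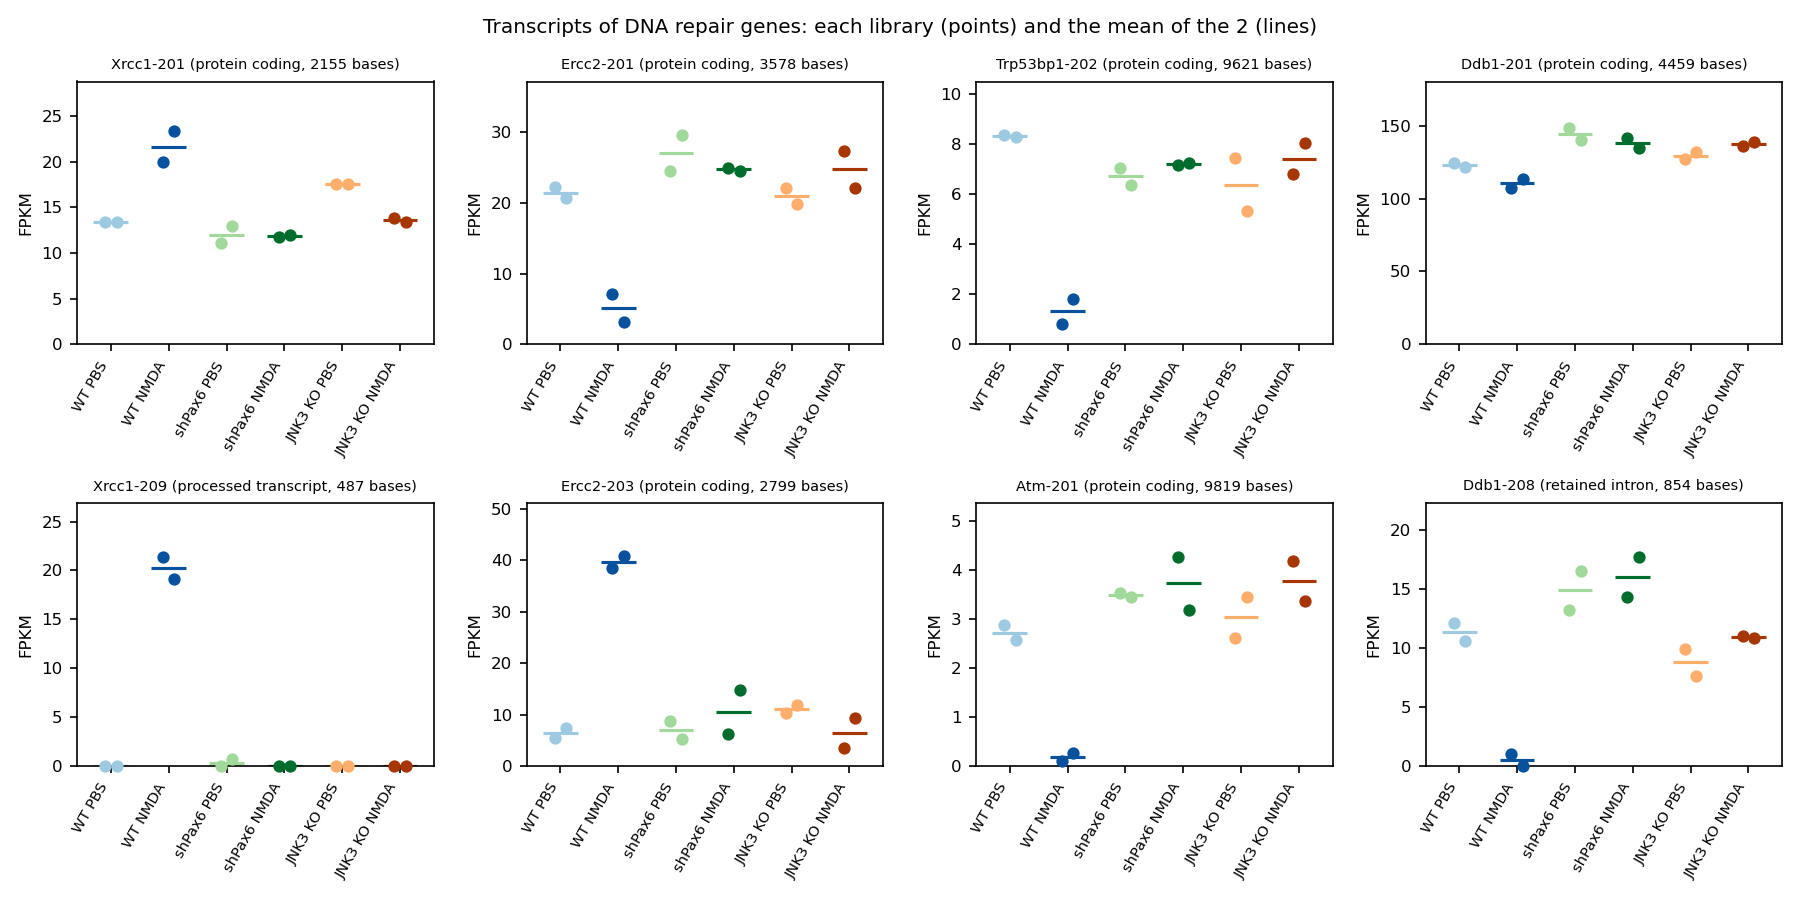
FPKM (linear axis from 0) of 8 transcripts of Xrcc1, Ercc2, Trp53bp1, Atm and Ddb1 in the 6 groups, with 1 point per library and a line at the mean of the 2. In WT NMDA, Xrcc1-209 reaches 21.35 and 19.09 FPKM and Ercc2-203 exceeds Ercc2-201, while Trp53bp1-202, Atm-201 and Ddb1-208 lie below the other 10 libraries.

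In shPax6 retinas NMDA raised 5 of the 38 genes and lowered 0, which is 13.2% of them, against 19.1% of all genes higher and 11.0% lower. The median difference was 0.12, and 0.10 for all genes, and in 14 genes the groups did not overlap, where 57.0% of all genes did not. Chek1 (ENSMUSG00000032113, chr9:36708482-36727065) went from 0.04 and 0.47 FPKM under PBS to 1.34 and 2.61 FPKM under NMDA (2.81 ± 0.78, adjusted p = 0.0245). Its level under NMDA was thus the highest of any group, although its most abundant transcript is a noncoding one of 817 bases, and without shPax6 PBS replicate 1 or shPax6 NMDA replicate 2 the call was lost (1.79 to 3.82 over the libraries left out). Xrcc5 went from 9.45 and 9.44 to 18.36 and 14.28 FPKM (0.77 ± 0.16, adjusted p = 0.00668), the call that held with any library left out. Ercc1 went from 18.64 and 22.93 to 49.55 and 34.29 FPKM (0.99 ± 0.22, adjusted p = 0.00956), but the sum of its protein-coding transcripts differed by only 0.07. Neil1 went from 4.33 and 3.18 to 7.09 and 5.79 FPKM (0.77 ± 0.21, adjusted p = 0.0201), and Neil2, which removes oxidised bases from open DNA, from 3.84 and 4.39 to 5.83 and 6.27 FPKM (0.55 ± 0.18, adjusted p = 0.0448). Neil2 lost its call without any 1 of the 4 shPax6 libraries, and with the spread estimated from these 4 libraries alone 0 repair genes were called. At the study's limits, with the unadjusted p, 1 gene was higher (Chek1) and 0 lower, against 9.8% and 5.4% of all genes.

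Of the genes called in WT, Xrcc1, Apex1, Mdc1 and Lig4 did not pass the test in shPax6; they are given as examples chosen after their values were seen. Xrcc1 was at 17.15 and 17.06 FPKM under PBS and 21.00 and 18.52 FPKM under NMDA (95% interval -0.03 to 0.43). Apex1 was at 18.62 and 16.54 against 16.03 and 18.07 FPKM (-0.27 to 0.18). Mdc1 was at 17.31 and 22.16 against 16.15 and 21.34 FPKM, and Lig4 at 3.11 and 4.68 against 4.59 and 3.57 FPKM. In each of these but Xrcc1, the NMDA and PBS libraries overlapped.

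In JNK3 KO retinas 1 repair gene fell and 0 rose, against 4.33% of all genes higher and 6.1% lower. Polb went from 57.20 and 55.74 FPKM under PBS to 44.27 and 44.82 FPKM under NMDA (-0.34 ± 0.05, adjusted p = 0.00511), opposite in sign to its difference in WT, and the call held with any library left out. Its level under PBS in JNK3 KO was the highest outside WT NMDA, and its level under NMDA the lowest of all groups. At an unadjusted p under 0.05, 3 genes were higher and 2 lower: Mre11a (0.56), Atr (0.50) and Apex1 (0.29), and Polb and Xrcc1 (-0.25). After the length correction, 1 gene was higher (Apex1, 0.44) and 1 lower, against 4.15% and 3.98%. At the study's limits, with the unadjusted p, the counts were 0 and 0, against 1.31% and 2.87%. In 20 of 38 genes the groups did not overlap, where 61.5% of all genes did not. Mdc1, at 17.42 and 18.32 FPKM under PBS, was at 21.76 and 21.31 FPKM under NMDA, and Lig4, at 3.50 and 3.78 FPKM, was at 5.18 and 5.22 FPKM, so that both lay higher without overlap, in place of the fall in WT, but did not pass the test.

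Without injury, no repair gene passed the limma test in either genotype against WT. For shPax6 against WT under PBS, 0 were higher and 0 lower, against 5.36% and 11.2% of all genes, and 1 and 2 reached an unadjusted p under 0.05 (Ddb1 higher, Mre11a and Apex1 lower). The groups did not overlap in 14 genes, where 57.5% of all genes did not. Mre11a was at 6.42 and 7.89 FPKM in shPax6 PBS against 10.49 and 10.91 FPKM in WT PBS (-0.58, adjusted p = 0.0939). For JNK3 KO against WT under PBS, 0 were higher and 0 lower, against 1.1% and 0.407% of all genes, and 3 and 1 reached an unadjusted p under 0.05. These were Neil1 (0.47), Xrcc1 (0.28) and Polb (0.14) on the higher side and Mre11a on the lower, at 6.60 and 7.25 FPKM (-0.62, adjusted p = 0.193). Here the groups did not overlap in 18 genes, against 53.7% of all genes. Both comparisons share the WT PBS libraries, so the lower Mre11a in the 2 of them is not independent.

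The responses themselves were compared as differences of differences. WT minus shPax6 gave 6 genes higher and 9 lower, against 18.3% and 31.4% of all genes, with medians of -0.26 for the repair genes and -0.28 for all genes. WT minus JNK3 KO gave 11 higher and 10 lower, against 23.5% and 27.9%, with medians of 0.06 and -0.03. On TPM the counts became 3 and 16 for WT minus shPax6, against 9.2% and 47.2% of all genes, and 4 and 16 for WT minus JNK3 KO, against 12.8% and 42.3%. After quantile normalization they became 10 and 5, against 19.6% and 22.9%, and 12 and 6, against 22.0% and 26.0%. Both use the WT libraries, so they are given side by side only. All 5 of the risers among base excision and single-strand break processing genes differed from both other responses: Xrcc1 by 1.11 from shPax6 and 1.57 from JNK3 KO, Apex1 by 1.36 and 1.03, Lig1 by 1.26 and 1.14, Fen1 by 0.83 and 0.57, and Polb by 0.59 and 1.02. Lig3 differed by -0.92 and -0.75. Of these, Polb turned to -0.20 and -0.11 after the length correction and Apex1 to -0.092 against JNK3 KO, Fen1 turned to -0.023 against JNK3 KO on TPM, and in protein-coding transcripts Lig1 turned to -1.96 and -4.38 and Lig3 to 0.37 against shPax6. Lig3 turned to 0.13 against JNK3 KO after the length correction.

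Of the 7 genes of double-strand break sensing and signalling, 3 were lower in WT minus shPax6 and 5 in WT minus JNK3 KO, with Nbn and Chek2 called in neither. Mdc1 differed by -1.24 from shPax6 (adjusted p = 0.00145) and -1.58 from JNK3 KO, Trp53bp1 by -1.33 and -1.21, and Mre11a by -1.26 and -1.56. Rad50 (-1.09) and Atm (-2.53, adjusted p = 0.0489) passed only in WT minus JNK3 KO, and whether the shPax6 and JNK3 KO responses differ in them was not tested. Atr differed by -1.02 and -1.45, Lig4 by -1.69 and -2.11, and Prkdc by -0.75 and -1.0. Chek1 differed by -4.96 from shPax6 (adjusted p = 0.00511), the largest difference of any repair gene, from levels that never exceeded 2.61 FPKM. Among the excision genes, Xpa differed by 1.15 and 1.13, while Ercc1 (1.90), Ercc2 (0.41), Ercc3 (0.60), Xpc (-0.58), Neil1 (1.07) and Xrcc6 (1.17) passed for JNK3 KO, and Msh6 (-0.81) for shPax6, again with no test between shPax6 and JNK3 KO. After the length correction 3 and 5 genes were called for WT minus shPax6, against 10.5% and 28.3% of all genes, and 4 and 3 for WT minus JNK3 KO, against 10.4% and 23.5%.

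**Figure D5:**
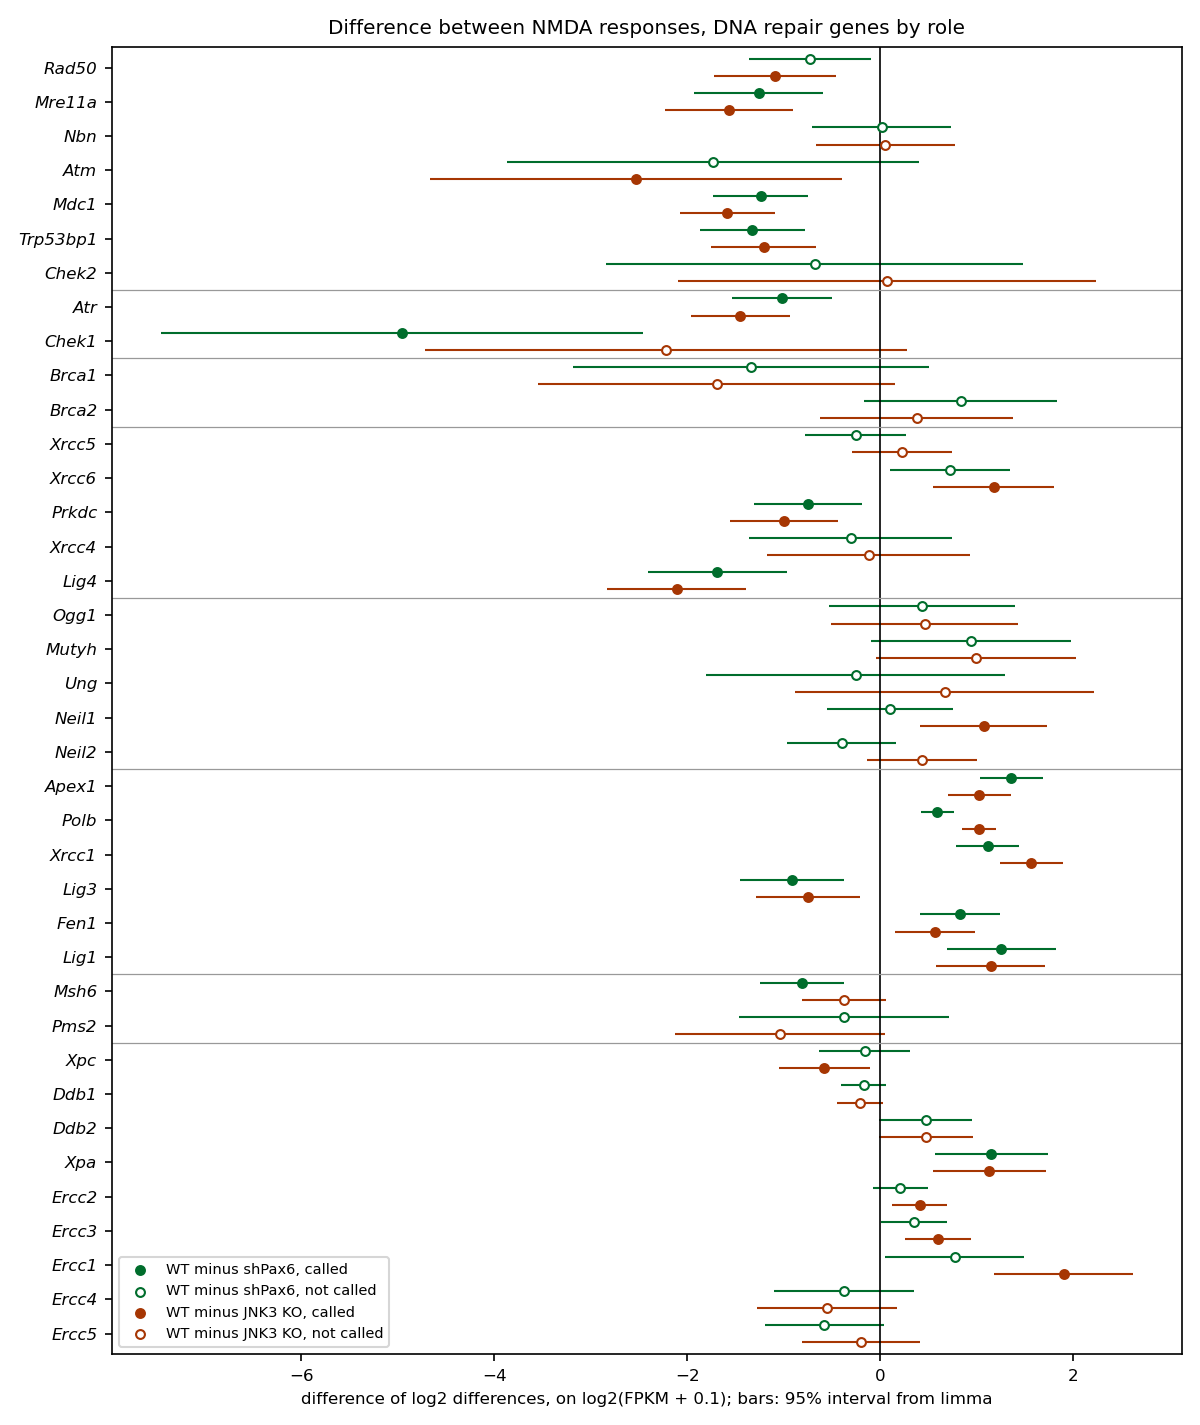
Difference between NMDA responses (WT minus shPax6 in green, WT minus JNK3 KO in orange) for each of the 38 DNA repair genes, as differences of log2(FPKM + 0.1) with 95% intervals from limma, filled where the adjusted p is under 0.05. Mre11a, Mdc1, Trp53bp1, Atr and Lig4 lie left of 0, and Xrcc1, Apex1, Lig1, Fen1, Polb and Xpa lie right of 0 in both comparisons.

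A wider list of 112 other DNA repair genes, 111 found and 100 tested, also split in WT. There 33 were higher and 30 lower, against 26.0% and 33.8% of all genes, with a median of -0.06, and after the length correction 13 were higher and 23 lower. In shPax6, 7 were higher and 1 lower, against 19.1% and 11.0%, and in JNK3 KO 0 and 0, against 4.33% and 6.1%. In WT, 7 of 14 further base excision genes were higher and 3 lower, all 3 direct reversal genes were higher, and 4 of 15 homologous recombination genes were lower and 1 higher. Of 9 further break-signalling genes, 3 were higher and 5 lower, and of 10 replication stress genes 1 and 4. Of 20 nucleotide excision genes, 8 were higher and 6 lower, and of 8 end joining genes 4 and 2. Of 9 translesion synthesis genes, 3 were higher and 5 lower. Fanconi anaemia genes gave 1 and 1 of 9, and mismatch repair genes 2 and 0 of 3. After the length correction, 3 of the base excision genes were higher and 2 lower, 1 of the direct reversal genes was higher, and 1 of the recombination genes was lower and 2 higher. The other roles, in the order above, then gave 1 and 4, 0 and 4, 2 and 6, 2 and 2, 1 and 3, 0 and 1, and 1 and 0. The largest rises in WT were those of Mgmt, which takes methyl groups off guanine, from 0.30 and 0.39 to 1.70 and 1.93 FPKM (2.11), and of Nthl1, a glycosylase for oxidised pyrimidines, from 3.42 and 3.54 to 10.70 and 10.74 FPKM (1.60). Cul4b, a scaffold of the ubiquitin ligase that holds Ddb1, went from 13.96 and 14.27 to 3.73 and 4.26 FPKM (-1.80), and Uvssa, which acts in transcription-coupled repair, from 4.64 and 5.32 to 1.31 and 1.60 FPKM (-1.71). In shPax6, Parp3, a sensor of strand breaks, rose from 10.22 and 11.97 to 23.53 and 22.27 FPKM (1.04), and the recombination gene Xrcc3 fell from 4.07 and 2.47 to 1.36 and 0.99 FPKM (-1.38).

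Markers of other cells and states moved with the same groups. The 8 neutrophil markers, 6 of them tested, summed to 212 to 235 and 1947 to 1985 FPKM in WT (4 higher, 0 lower). In shPax6 they summed to 5.16 to 6.09 and 66.4 to 73.0 FPKM (5 higher, 0 lower). In JNK3 KO they summed to 156 to 170 and 13.1 to 13.9 FPKM (0 higher, 4 lower). Elane was at 0 in 11 of the 12 libraries. Most of the WT NMDA sum was S100a8 (644.65 and 720.81 FPKM) and S100a9 (1145.58 and 1114.59 FPKM), while Csf3r and Cxcr2 were not called in WT. The 10 microglia and macrophage markers summed to 56.8 to 61.0 and 120 to 131 FPKM in WT (5 higher, 4 lower). In WT, Aif1, C1qa, C1qb, C1qc and Cd68 were higher, and Cx3cr1, P2ry12, Tmem119 and Ptprc lower. The sums were 166 to 181 and 545 to 580 FPKM in shPax6 (6 higher, 0 lower). They were 68.3 to 71.3 and 68.4 to 72.7 FPKM in JNK3 KO (1 higher, 3 lower). Among retinal neurons and glia, the 8 amacrine markers summed to 271 to 277 and 110 to 119 FPKM in WT (7 lower), 211 to 224 and 91.2 to 92.4 FPKM in shPax6 (8 lower), and 240 to 249 and 203 to 208 FPKM in JNK3 KO (2 lower). The 7 cone markers summed to 526 to 555 and 623 to 636 FPKM in WT, where Pde6h was higher and 3 were lower (Arr3, Opn1sw and Cnga3). Their sums were 1035 to 1133 and 224 to 255 FPKM in shPax6 (7 lower), and 547 to 581 and 334 to 338 FPKM in JNK3 KO (6 lower). Of 8 rod markers, 4 rose and 2 fell in WT, 1 rose and 7 fell in shPax6, and 6 fell in JNK3 KO. The 7 Müller glia markers summed to 1249 to 1313 and 1828 to 1846 FPKM in WT (2 higher, 4 lower), 1561 to 1643 and 2281 to 2397 FPKM in shPax6 (4 higher, 1 lower), and 1306 to 1307 and 1328 to 1338 FPKM in JNK3 KO (3 higher, 2 lower). Of 8 bipolar markers, 6 fell and 1 rose in WT. Of 9 RGC markers, 8 fell in WT, 7 in shPax6 and 6 in JNK3 KO. Of 17 proliferation genes tested, 3 rose and 1 fell in WT, 3 rose in shPax6, where Chek1 was highest, and 0 were called in JNK3 KO, where the shares of all genes higher and lower were 26.0% and 33.8% in WT, 19.1% and 11.0% in shPax6, and 4.33% and 6.1% in JNK3 KO. Of 15 p53 targets tested, 6 rose and 5 fell in WT, 9 rose in shPax6 and 5 rose in JNK3 KO, to be read against the same shares. The part of any of these in the changes of the repair genes was not tested.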

How the data were processed

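The authors aligned reads with STAR 2.7.1a and quantified genes and transcripts with RSEM 1.3.3 on GRCm38.p6 with Ensembl annotation, and deposited FPKM for each gene and transcript in each library. Read counts were not used here, so the depth behind each value is unknown and no counting interval is given; the number of libraries limits the precision. The study's own comparisons used edgeR 3.36.0 in R 4.1.0 per the submitters' notes.

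Here, log2(FPKM + 0.1) was tested with limma 3.58.1 in R 4.3.3 (lmFit, eBayes with an intensity trend) in 1 model of 6 groups with 6 residual degrees of freedom, over 16471 genes with a group mean above 1 FPKM. A call is a Benjamini-Hochberg adjusted p under 0.05 over all genes tested, two-sided. The script was tested on simulated data. Of the 55487 genes, 99.53% matched the GENCODE annotation of that build used for lengths, and 99.14% of transcripts. The length correction subtracts, within each library, a lowess curve (span 0.3) of the log2 level on the length of the most abundant transcript. The median of the library is then added back, before the groups are compared. TPM was FPKM rescaled to a sum of 1000000 per library.

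The repair genes, the wider repair list and the marker lists were chosen with earlier results of these data known. All 39 repair genes are accounted for, by role; of the wider list, the 2 largest rises and 2 largest falls among calls of each NMDA response are named, fewer where fewer were called. Alternatives were scaling, pseudocounts of 0.5 and 1, filters, normalization, spread, length, protein-coding transcripts, the replicate block and leaving out each library. Some genes of the wider list are not reported here.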

Additional observations from a re-analysis of the deposited data

Results flagged for a closer look

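These are the repair genes whose NMDA response differed between genotypes by the test of the difference itself, at a limma adjusted p under 0.05; values are the WT response minus the other, on log2(FPKM + 0.1), from 2 libraries per group.

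For WT minus shPax6, the genes with lower values were Mre11a (-1.26), Mdc1 (-1.24), Trp53bp1 (-1.33), Atr (-1.02), Chek1 (-4.96), Prkdc (-0.75), Lig4 (-1.69), Lig3 (-0.92) and Msh6 (-0.81). Those with higher values were Apex1 (1.36), Polb (0.59), Xrcc1 (1.11), Fen1 (0.83), Lig1 (1.26) and Xpa (1.15).

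For WT minus JNK3 KO, the genes with lower values were Rad50 (-1.09), Mre11a (-1.56), Atm (-2.53), Mdc1 (-1.58), Trp53bp1 (-1.21), Atr (-1.45), Prkdc (-1.0), Lig4 (-2.11), Lig3 (-0.75) and Xpc (-0.58). Those with higher values were Xrcc6 (1.17), Neil1 (1.07), Apex1 (1.03), Polb (1.02), Xrcc1 (1.57), Fen1 (0.57), Lig1 (1.14), Xpa (1.13), Ercc2 (0.41), Ercc3 (0.60) and Ercc1 (1.90).

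Groups of 2 libraries are too small to look for a library far from the others in its group.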

How the results depend on the processing

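Counts of repair genes (higher and lower) moved by over 1.5 times as follows; the cause was not tested. In WT (13 and 12), the study's limits of unadjusted p under 0.05 and an absolute log2 difference over 1 gave 7 and 5, TPM 5 higher, quantile normalization 6 lower, the length correction 4 lower, and a length correction on abundance-weighted lengths 5 and 5. In shPax6 (5 and 0), the study's limits gave 1 higher, quantile normalization 3 and 1, and the spread from the groups compared 0 higher. In JNK3 KO (0 and 1), either length correction gave 1 higher, and the study's limits and the weighted correction 0 lower. For shPax6 against WT under PBS (0 and 0), protein-coding transcripts gave 1 higher. For WT minus shPax6 (6 and 9), TPM gave 3 and 16, quantile normalization 10 and 5, the length correction 3 and 5, and the weighted one 4 lower. For WT minus JNK3 KO (11 and 10), TPM gave 4 and 16, quantile normalization 6 lower, the length correction 4 and 3, and the weighted one 3 and 2.

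Without each library in turn, the counts higher and lower ranged from 12 to 12 and 8 to 10 in WT, 3 to 7 and 0 to 1 in shPax6, 0 to 0 and 1 to 1 in JNK3 KO, 0 to 1 and 0 to 2 for shPax6 against WT, 0 to 0 and 0 to 0 for JNK3 KO against WT, 6 to 8 and 8 to 11 for WT minus shPax6, and 8 to 10 and 7 to 10 for WT minus JNK3 KO. The replicate numbers did not pair the libraries (correlations of same-numbered deviations -0.013 in WT, 0.022 in shPax6 and -0.097 in JNK3 KO); with the replicate block the counts were 13 and 12, 6 and 0, 0 and 1, 0 and 1, 0 and 0, 7 and 10, and 12 and 9, in the same order.

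Directions reversed in WT for Atr (0.12), Prkdc (0.73), Polb (-0.30), Lig3 (0.17) and Ddb1 (0.29) under the length correction, for Rad50 (0.054), Atr (0.21), Prkdc (0.91), Polb (-0.23), Msh6 (0.11), Ddb1 (0.10) and Xpa (-0.0080) under the weighted one, for Xrcc5 (-0.055), Ddb2 (-0.44), Ercc2 (-0.22) and Ercc3 (-0.069) on TPM, and for Brca2 (-1.94), Lig1 (-4.34), Ddb1 (0.11) and Ddb2 (-1.09) in protein-coding transcripts. In WT minus shPax6 they reversed for Prkdc (0.36 and weighted 0.46) and Polb (-0.20 and -0.14) with length, and for Brca2 (-2.17), Lig3 (0.37) and Lig1 (-1.96) in coding transcripts. In WT minus JNK3 KO they reversed for Prkdc (0.71 and 0.94), Apex1 (-0.092 and -0.17), Polb (-0.11 and -0.046), Xpa (-0.084 and -0.24) and Lig3 (0.13) with length, Fen1 (-0.023) and Ercc2 (-0.18) on TPM, and Brca2 (-2.83) and Lig1 (-4.38) in coding transcripts. Among transcripts in WT, the length correction reversed Atr-201 (0.53), Ddb1-201 (0.49), Mdc1-201 (0.32), Msh6-201 (0.12) and Prkdc-201 (0.80). Over all settings, the values of genes called in WT stayed on the same side 344 times, lost the call 62 times and reversed 17 times. The weighted length correction, the protein-coding sums and the transcript table were chosen after seeing the data.

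FPKM carries no depth, so low genes such as Chek1, Chek2 and Ung cannot be given a counting error, and with 2 libraries a group the test rests on a spread shared over 6 groups.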
